A study of Mus musculus with 6 samples.

Results

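Chemokines and their receptors were examined in epididymal white fat of mice given CL-316,243, set against the same depot of mice given saline. The genes were those with a probe whose symbol starts with Ccl, Cxcl, Ccr, Cxcr, Cx3c, Xcl, Xcr or Ackr and goes on with a digit. This gave 51 genes, 30 ligands and 21 receptors, each read by 1 probe, among 13409 named genes and 19200 probes. CL-316,243 is an agonist of the beta3-adrenergic receptor of fat cells; the labels also spell it CL316,246 in one place. All mice were 12-week-old males of the strain C57BL/6J, the treated ones received 1 mg per kg body weight, the others saline, and tissue was taken 3 hr after the injection. RNA of 6 mice was combined into 1 CL-316,243 pool and RNA of 6 mice into 1 saline pool, and each of the 6 two-colour arrays compared these 2 pools. Arrays 4, 5 and 6 carried the CL-316,243 pool in channel 2, arrays 1, 2 and 3 in channel 1. The arrays are repeat measurements of the same 2 pools, so the p-values below cover the spread between arrays, not between mice.

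Chemokines are small secreted proteins that guide leukocytes, grouped as CC, CXC, CX3C and XC by the spacing of their first cysteines. Their receptors couple to inhibitory G proteins and lead cells up a gradient, while atypical receptors bind and clear ligands without that signal. In white fat, macrophages, stromal cells and fat cells are all known sources, and Ccl2 is known for drawing monocytes into the depot.

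Each value is a deposited log ratio of both channels, taken as log2; were it a natural log, ratios would be 1.44 times larger and the tests would not change. The sources used here do not give the pool that forms the numerator. Every array is titled for tissue of treated mice. Of the probes as placed below, 94 had a mean of at least 1 in size in both orientations. Of these 93 had the same sign in both. The placement is guided by agreement between arrays and raises it. This count is therefore no independent evidence that the sign does not turn with the channel. The CL-316,243 pool is taken as the likely numerator, and a gene is called "higher" or "lower" here by its level in that likely numerator. All directions turn if the numerator was the saline pool. Rows did not correspond between arrays as deposited (Spearman rho between -0.03 and 0.03 over probes), so each column was first placed on probe numbers, and every call below rests on that placement. Values were kept for 92.2%, 99.8% and 99.8% of probes on arrays 4, 5 and 6 and for 97.4%, 64.4% and 95.6% on arrays 1, 2 and 3; 32 of the 51 genes have no value on array 2. Ratios carry no level, so neither the abundance of a chemokine nor the presence of defining markers of fat could be read from them. The 3 seminal vesicle transcripts looked at, Svs4, Svs5 and Pate4, which white fat is not known to make, were lower on all 6 arrays (Svs5 at -5.47 ± 0.48 SE, n = 6 arrays, limma adjusted p = 0.00061; all chosen after their values were seen); the part of dissection in the results below was not tested. In pooled tissue RNA, a change in the number of cells and a change in RNA per cell cannot be told apart.

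Of the 48 chemokine and receptor genes with values on at least 4 arrays, 7 had a limma adjusted p under 0.05, the threshold used throughout. That is 14.6%, against 3.01% of all 13022 genes tested (392 genes). Of the 7, 5 were higher (Cxcl1, Ccl2, Ccl7, Ccl12 and Cxcl13), where 1.86% of all genes were, and 2 were lower (Ccl8 and Cxcr4), where 1.15% were. Among ligands 6 passed, and among receptors only Cxcr4 did. The median ratio was 0.11 for the 48 genes and -0.01 for all genes, and the median size 0.23 against 0.14. The same sign on every measured array was seen in 13 of the 48 genes, and in 14.2% of all genes. Values on all 6 arrays were held by 19 of the 48 genes and by 7853 of the 13022. A single sign is easier to reach with fewer arrays, so these shares are not directly comparable. With the rows read as deposited none of the 7 passed, nor did any of the 13409 named genes then tested.

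**Figure D1:**
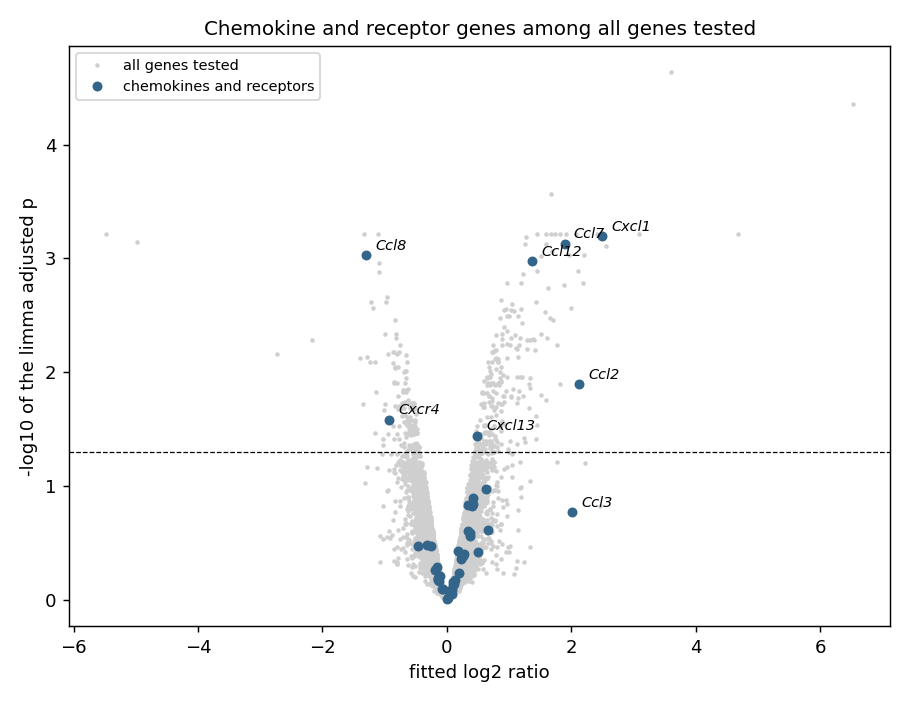
Fitted log2 ratio (x axis) against -log10 of the limma adjusted p (y axis) for all 13022 genes tested (grey) and the 48 chemokine and receptor genes (blue); the dashed line is an adjusted p of 0.05. The 7 named genes above the line are those called, and Ccl3 at 2.01 lies below it.

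The inflammatory CC ligands held most of the calls: of 11 tested, 3 were higher and 1 was lower, with a median of 0.42. The monocyte attractants Ccl2, Ccl7 and Ccl12, which all act on the receptor Ccr2, were the 3 that were higher, and Ccl8 of the same subfamily was the one that was lower. Ccl2 (MCP-1) had ratios of 1.09, 2.59 and 2.69 on arrays 4, 5 and 6 and of 3.22 and 1.02 on arrays 1 and 3. All were above 0, and the low values, 1 in each orientation, came from arrays 4 and 3. The fitted ratio was 2.12 ± 0.33 (SE, n = 5 arrays, 4.36-fold, limma adjusted p = 0.0128). Without array 1 the adjusted p was 0.0588 (ratio 1.57) and without array 5 it was 0.0715 (2.01), so the call rests on each of them.

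Ccl7 (MCP-3), which also binds Ccr1 and Ccr3, was at 2.11, 1.85 and 2.19 on arrays 4, 5 and 6 and at 2.22 and 1.26 on arrays 1 and 3. The 4 higher values lay close together and array 3 was the lowest. Its fitted ratio was 1.89 ± 0.16 (SE, n = 5 arrays, 3.72-fold, limma adjusted p = 0.000747). Ccl12 (MCP-5), found in mice and not in humans, was at 1.44, 1.70 and 1.64 on arrays 4, 5 and 6 and at 1.39 and 0.93 on arrays 1 and 3. Array 3 was again the lowest, and all 5 values were above 0. The fitted ratio was 1.37 ± 0.12 (SE, n = 5 arrays, 2.59-fold, limma adjusted p = 0.00106).

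Ccl8 (MCP-2), which in mice acts through Ccr8, was at -0.92, -1.52 and -1.30 on arrays 4, 5 and 6 and at -1.49, -1.59 and -0.94 on arrays 1, 2 and 3. It was below 0 on all 6 arrays and the orientations overlapped. The fitted ratio was -1.29 ± 0.13 (SE, n = 6 arrays, 2.45-fold lower, limma adjusted p = 0.000939). Its receptor Ccr8 was at 0.28 ± 0.16 and did not pass (limma adjusted p = 0.396). Of the macrophage marker list 1 of 12 tested genes passed, Mpeg1, a pore-forming protein of macrophages, which was lower (-0.69 ± 0.15, limma adjusted p = 0.0416); the list's median was -0.12. Its part in the ratio of Ccl8 was not tested.

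Ccl12 and Ccl8 follow each other on chromosome 11 in the RefSeq gene order and carry calls of opposite sign, so the 250 bases before their starts are shown to set the pair side by side (RefSeq, GRCm38.p6, plus strand, chr11:82101595-82101844 for Ccl12 and chr11:82114935-82115184 for Ccl8). Capitals mark a TATA box, which starts at position -31 in Ccl12 and -32 in Ccl8, counted from the start.
Ccl12: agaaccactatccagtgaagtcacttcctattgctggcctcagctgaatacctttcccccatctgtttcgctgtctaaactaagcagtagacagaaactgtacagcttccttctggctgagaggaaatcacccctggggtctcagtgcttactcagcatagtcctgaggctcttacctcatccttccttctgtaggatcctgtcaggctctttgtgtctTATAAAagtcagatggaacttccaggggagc
Ccl8: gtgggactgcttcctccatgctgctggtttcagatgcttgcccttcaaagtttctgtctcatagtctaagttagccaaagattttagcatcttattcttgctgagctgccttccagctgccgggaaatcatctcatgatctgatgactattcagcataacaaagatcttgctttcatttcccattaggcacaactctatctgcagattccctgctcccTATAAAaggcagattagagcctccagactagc
Both hold TATAAA on the promoter strand at nearly the same place, which 8.32% of the 32851 promoters of the table do anywhere in their 300 bases. Neither holds a kappaB motif (GGAATTTCC), a short CRE (TGACG) or an AP-1 motif (TGANTCA) on either strand. The motifs were chosen after the sequences were seen, and a match describes letters, not binding.

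**Figure D2:**
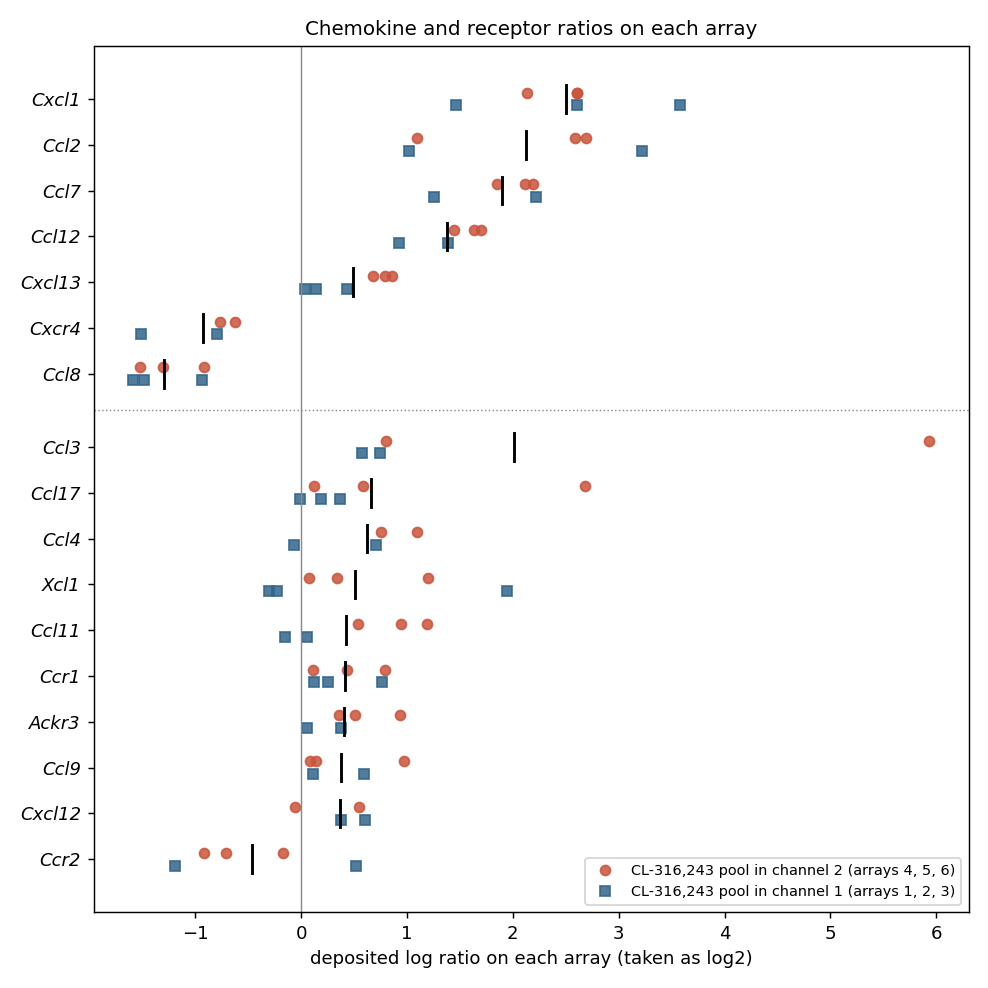
Deposited log ratio, taken as log2 (x axis), of the 7 called genes (above the dotted line) and of the 10 other genes with the largest fitted ratios, on arrays with the CL-316,243 pool in channel 2 (red circles) and in channel 1 (blue squares); black bars are fitted ratios. The points of Cxcl1, Ccl2, Ccl7 and Ccl12 all lie right of 0 and those of Ccl8 and Cxcr4 left of it, while single arrays carry Ccl3 (5.93) and Ccl17 (2.68).

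The other 7 inflammatory CC ligands did not pass. Ccl3 (MIP-1 alpha), a ligand of Ccr1, was at 5.93 and 0.80 on arrays 5 and 6 and at 0.58 and 0.75 on arrays 1 and 3. All 4 values were positive, and array 5 alone set the size of its fitted ratio, 2.01 ± 0.67 (SE, limma adjusted p = 0.17), which was 0.73 without that array. Without array 6 it was 3.30 (limma adjusted p = 0.00101), but array 5 then stood alone for its orientation, so that p rests on the closeness of arrays 1 and 3. Of the 10 probes within 5 places of the Ccl3 probe, 4 were above 1 on array 5, against 2.34% of all values of that array; the part of neighbouring spots in the value was not tested.

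Ccl4 (MIP-1 beta), a relative of Ccl3 made by activated leukocytes, was at 0.75 and 1.09 on arrays 5 and 6 and at 0.71 and -0.07 on arrays 1 and 3, with a fitted ratio of 0.62 ± 0.17 (SE, n = 4 arrays, limma adjusted p = 0.105). Ccl11 (eotaxin), which attracts eosinophils through Ccr3, was at 0.53, 0.94 and 1.19 on arrays 4, 5 and 6 and at 0.05 and -0.15 on arrays 1 and 3. The orientations of Ccl11 did not overlap: its fitted ratio of 0.42 ± 0.13 did not pass (limma adjusted p = 0.145), the arrays with the CL-316,243 pool in channel 2 alone gave 0.89 (adjusted p = 0.0479) and those with it in channel 1 alone gave -0.05. Ccl9, a macrophage product that acts on Ccr1, was at 0.14, 0.97 and 0.08 on arrays 4, 5 and 6 and at 0.59 and 0.11 on arrays 1 and 3. All 5 values were above 0, most of them small, and the fitted ratio was 0.37 ± 0.16 (SE, limma adjusted p = 0.274) and 0.23 without array 5. Its relative Ccl6 was at 0.33 ± 0.11 with 5 of 6 arrays above 0 (limma adjusted p = 0.148). Ccl24, a second eotaxin, was at 0.34 ± 0.14, with a mean of -0.28 over arrays 4, 5 and 6 and of 0.96 over arrays 1 and 3, and Ccl5 (RANTES), a T-cell and macrophage product, was at -0.12 ± 0.13.

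None of the 6 homing and mucosal CC ligands tested passed, and their median was 0.09. Ccl17, which draws T cells through Ccr4, was at 2.68, 0.59 and 0.12 on arrays 4, 5 and 6 and at -0.01, 0.19 and 0.37 on arrays 1, 2 and 3. Array 4 stood apart from the rest: the fitted ratio was 0.66 ± 0.27 (SE, n = 6 arrays, limma adjusted p = 0.242) and 0.27 without it, also the value when the placement used none of the 51 probes, which did not keep the array 4 value. Ccl22, the other ligand of Ccr4, was at 0.18 ± 0.10 with 6 of 6 arrays above 0. Ccl1, Ccl19, Ccl20 and Ccl25, of which Ccl19 acts on Ccr7, Ccl20 on Ccr6 and Ccl25 on Ccr9, lay between -0.16 and 0.13.

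Among CXC ligands with the ELR motif, which attract neutrophils through Cxcr2, Cxcl1 (KC) had the largest ratio of all 48 genes. Cxcl1 was at 2.13, 2.60 and 2.60 on arrays 4, 5 and 6 and at 3.58, 2.61 and 1.46 on arrays 1, 2 and 3. It was above 0 on all 6 arrays, and arrays 1 and 3 held the highest and the lowest value. Its fitted ratio was 2.50 ± 0.22 (SE, n = 6 arrays, 5.65-fold, limma adjusted p = 0.000641). The array 2 value of Cxcl1 was not kept at a posterior of 0.99, nor when the placement used no chemokine or receptor probe. Without that value the ratio was 2.48 in both cases (limma adjusted p = 0.0015 and 0.0024, in the same order). Cxcl2 (MIP-2), a ligand of the same receptor, was at -0.48, -0.37 and -0.26 on arrays 4, 5 and 6 and at -0.26 on array 3. All 4 values were below 0 and small, and its fitted ratio of -0.31 ± 0.15 did not pass (limma adjusted p = 0.327). The values of Cxcl1 and Cxcl2 did not overlap.

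Cxcl1 and Cxcl2 are neighbours on chromosome 5, and the 250 bases before their starts are shown because the pair shares a motif while their ratios lay apart (RefSeq, GRCm38.p6, plus strand, chr5:90890995-90891244 for Cxcl1 and chr5:90903649-90903898 for Cxcl2). Capitals mark the kappaB motif GGAATTTCC, which starts at position -70 in Cxcl1 and -96 in Cxcl2, and the 2 short CREs (TGACG) of Cxcl1, read as CGTCA on this strand.
Cxcl1: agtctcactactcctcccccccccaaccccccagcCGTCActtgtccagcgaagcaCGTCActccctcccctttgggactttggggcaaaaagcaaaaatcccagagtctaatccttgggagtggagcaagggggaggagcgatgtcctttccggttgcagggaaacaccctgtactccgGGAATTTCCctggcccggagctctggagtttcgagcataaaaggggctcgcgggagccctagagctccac
Cxcl2: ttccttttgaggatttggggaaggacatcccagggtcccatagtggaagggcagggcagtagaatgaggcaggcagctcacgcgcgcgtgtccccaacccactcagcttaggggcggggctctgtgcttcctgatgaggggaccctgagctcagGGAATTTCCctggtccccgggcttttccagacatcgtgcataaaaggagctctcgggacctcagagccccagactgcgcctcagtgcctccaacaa
The kappaB motif was found, on either strand, in 104 of 32851 promoters (0.317%), and of the 39 chemokine and receptor genes in the table in Cxcl1, Cxcl2, Cxcl10 and Ccr3. The short CRE was found in 20.8% of promoters and in 7 of the 41 promoters of these genes, the full CRE (TGACGTCA) in 1.79% and in 0 of the 41. The AP-1 motif TGANTCA was found in 7.81% of promoters and in 6 of the 41, and the TATA box in 11 of the 41. Cxcl2, Cxcl10 (0.12 ± 0.15) and Ccr3 (0.05 ± 0.14) hold the same kappaB letters as Cxcl1 and did not pass. The part of these motifs in the ratios was not tested.

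Cxcl5, an epithelial and stromal neutrophil attractant, was at 0.23 ± 0.14, and Cxcl15 (lungkine), known from lung, at 0.10 ± 0.12; neither passed. Ppbp, a platelet chemokine with the same ELR motif that the symbol rule leaves out, was higher (0.60 ± 0.13 SE, 6 of 6 arrays above 0, limma adjusted p = 0.0414). The receptor Cxcr2 was at -0.19 ± 0.15 (limma adjusted p = 0.549), with a mean of 0.24 over arrays 4, 5 and 6 and of -0.61 over arrays 1 and 3. None of the 10 neutrophil markers tested passed; their median was 0.15, 8 of 10 were positive, and S100a9 (0.46 ± 0.15) and Mmp9 (0.44 ± 0.12) were above 0 on all 5 measured arrays, while Mpo was at -0.43 ± 0.24.

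**Figure D3:**
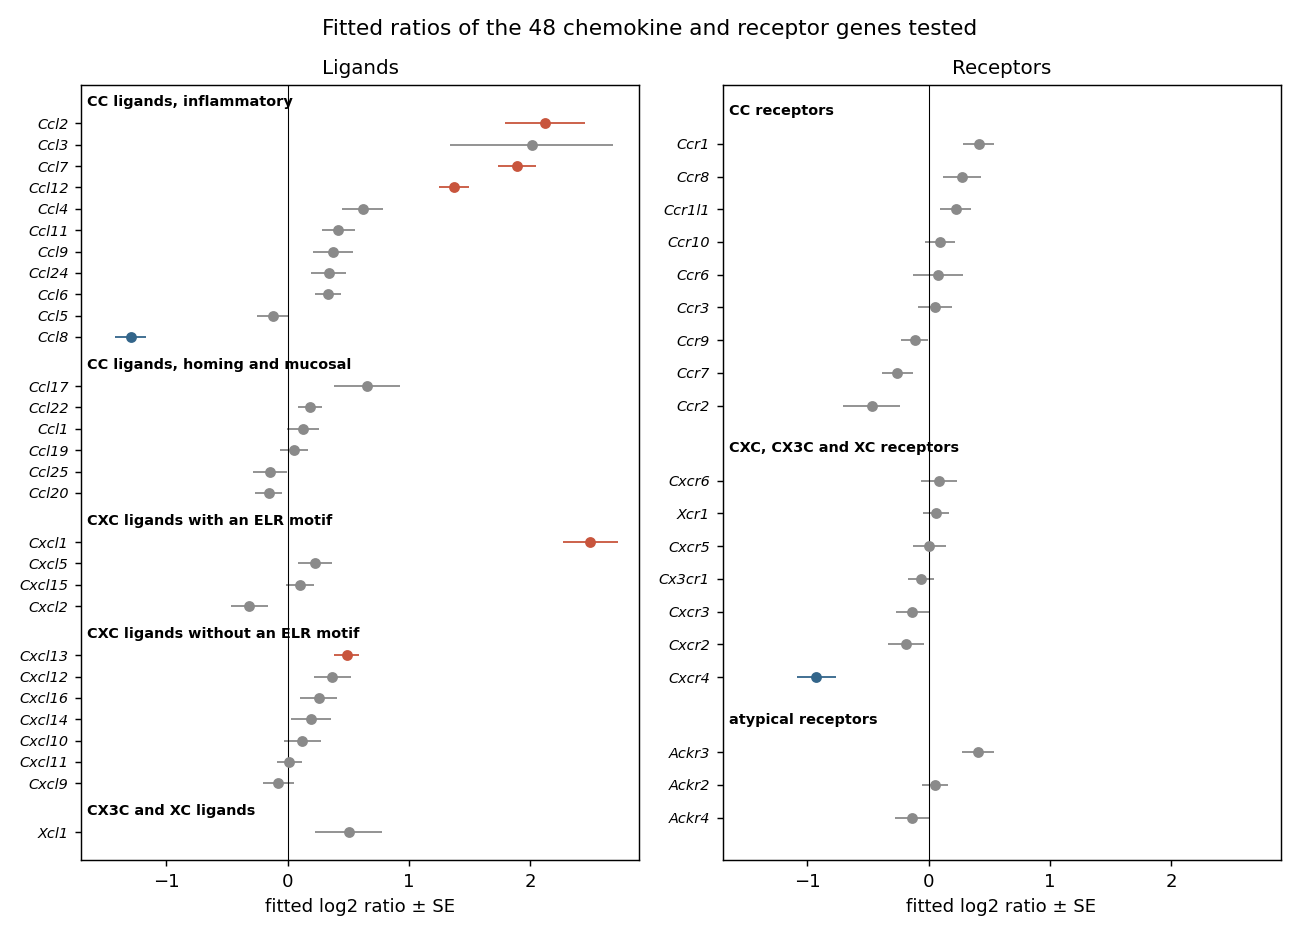
Fitted log2 ratio with its SE (x axis) of the 48 genes tested, ligands on the left and receptors on the right, grouped by role; red marks genes called higher, blue genes called lower and grey genes not called. The calls lie among inflammatory CC ligands and in Cxcl1, Cxcl13 and Cxcr4, and the other receptors lie between -0.47 and 0.41.

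Of the CXC ligands without the ELR motif, 8 tested with the platelet chemokine Pf4 included, only Cxcl13 passed, and the median was 0.16. Cxcl13, the B-cell attractant that acts on Cxcr5, was at 0.86, 0.79 and 0.68 on arrays 4, 5 and 6 and at 0.14, 0.03 and 0.43 on arrays 1, 2 and 3. All were above 0, but every value of the first orientation lay above every value of the second, and the dye term did not pass (limma adjusted p = 0.411). The fitted ratio was 0.49 ± 0.10 (SE, n = 6 arrays, 1.40-fold, limma adjusted p = 0.036). Leaving out any of arrays 1, 3, 4, 5 and 6 ended the call (ratios from 0.43 to 0.51, limma adjusted p from 0.0715 to 0.141). Cxcr5 was at 0.0048 ± 0.13, and none of 7 B-cell markers passed (median -0.13).

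Cxcl12, a stromal factor that retains leukocytes and progenitor cells through Cxcr4, was at -0.05 and 0.55 on arrays 5 and 6 and at 0.60 and 0.38 on arrays 1 and 3. Array 5 alone was below 0, and the fitted ratio of 0.37 ± 0.15 did not pass (SE, n = 4 arrays, limma adjusted p = 0.257). It was 0.22 without array 6 and 0.57 with values kept at a posterior of 0.8. The interferon-inducible ligands of Cxcr3 did not pass either: Cxcl9 was at -0.08 ± 0.13, Cxcl10 at 0.12 ± 0.15 and Cxcl11, which RefSeq lists as a transcribed pseudogene in this build, at 0.02 ± 0.10. Cxcl16, the ligand of Cxcr6, was at 0.26 ± 0.15 and Cxcl14, made by stromal cells, at 0.19 ± 0.16.

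Xcl1, a lymphocyte product that acts on Xcr1 of dendritic cells, was at 1.20, 0.07 and 0.34 on arrays 4, 5 and 6 and at -0.23, 1.94 and -0.30 on arrays 1, 2 and 3. The values scattered on both sides of 0, and the fitted ratio of 0.50 ± 0.28 did not pass (SE, n = 6 arrays, limma adjusted p = 0.378). It was 0.14 without array 2, whose value was also not kept at a posterior of 0.99 or when the placement used none of the 51 probes. Cx3cl1 (fractalkine), which is held on cell surfaces and sheds to act on Cx3cr1, had values on 3 arrays only and was not tested: 1.06 on array 6, and 0.94 and 0.35 on arrays 1 and 3. Cx3cr1 was at -0.06 ± 0.10 and Xcr1 at 0.06 ± 0.11.

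None of the 9 CC receptors tested passed, and their median was 0.08. Ccr2, the receptor of Ccl2, Ccl7 and Ccl12 on monocytes, was at -0.17, -0.91 and -0.71 on arrays 4, 5 and 6 and at -1.20 and 0.52 on arrays 1 and 3. Array 3 alone was above 0: the fitted ratio was -0.47 ± 0.23 (SE, n = 5 arrays, limma adjusted p = 0.336), and single arrays moved it both ways, to -0.90 without array 3 (limma adjusted p = 0.0433) and to -0.041 without array 1 (limma adjusted p = 0.949). Ccr1, which binds Ccl3 and Ccl9, was at 0.11, 0.79 and 0.43 on arrays 4, 5 and 6 and at 0.26, 0.12 and 0.76 on arrays 1, 2 and 3. It was above 0 on all 6 arrays and the orientations overlapped, but its fitted ratio of 0.41 ± 0.13 did not pass (limma adjusted p = 0.129). Its close relative Ccr1l1 was at 0.22 ± 0.13. The lymphocyte receptors Ccr6, Ccr7, Ccr9 and Ccr10 lay between -0.26 for Ccr7 and 0.09 for Ccr10, and Ccr4, measured on 3 arrays only and not tested, was at 1.39 and 0.09 on arrays 5 and 6 and at -0.41 on array 1.

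Cxcr4 was the one receptor that passed, and it was lower. Its values were -0.77 and -0.63 on arrays 5 and 6 and -1.52 and -0.79 on arrays 1 and 3. All 4 were below 0, with array 1 the lowest. The fitted ratio was -0.93 ± 0.16 (SE, n = 4 arrays, 1.90-fold lower, limma adjusted p = 0.0261), and without array 1, 5 or 6 it did not pass (-0.75, -0.89 and -0.96, limma adjusted p from 0.0835 to 0.152). The fitted ratios of Cxcr4 and of its ligand Cxcl12 thus had opposite signs, and only that of Cxcr4 passed. Cxcr3 of T cells was at -0.14 ± 0.14 and Cxcr6 at 0.08 ± 0.15, and none of the 11 markers of T and NK cells passed (median -0.06).

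Of the atypical receptors, Ackr3, which scavenges Cxcl12, was at 0.94, 0.36 and 0.51 on arrays 4, 5 and 6 and at 0.37 and 0.05 on arrays 1 and 3. All 5 values were above 0, and the fitted ratio of 0.41 ± 0.13 did not pass (SE, limma adjusted p = 0.151). Ackr2, a scavenger of inflammatory CC ligands, was at 0.05 ± 0.11, and Ackr4, which clears Ccl19 and Ccl25, at -0.14 ± 0.14. Ackr1, a chemokine-binding receptor of red cells and venules, had values on 3 arrays only, all above 0 (0.15 and 0.08 on arrays 5 and 6, and 0.38 on array 3), and was not tested.

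Along the chromosomes, 14 of the 51 genes lie on chromosome 11, 13 on chromosome 9 and 9 on chromosome 5. In the RefSeq order Ccl2, Ccl7, Ccl11, Ccl12, Ccl8 and Ccl1 on chromosome 11, fitted ratios were 2.12, 1.89, 0.42, 1.37, -1.29 and 0.13, so called genes of both signs lie within 1 cluster, with Ccl11, not called, between called genes. In the second cluster of that chromosome, Ccl5, Ccl9, Ccl6, Ccl3 and Ccl4, none passed. On chromosome 5 Cxcl1 (2.50) lies between Cxcl15 (0.10) and Cxcl2 (-0.31), of which neither passed. The receptor cluster on chromosome 9 from Ccr9 to Ccr2 held no call, with ratios from -0.47 for Ccr2 to 0.41 for Ccr1. Whether the probe of one gene also bound transcripts of a close relative could not be assessed, since probe sequences were not used here.

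**Figure D4:**
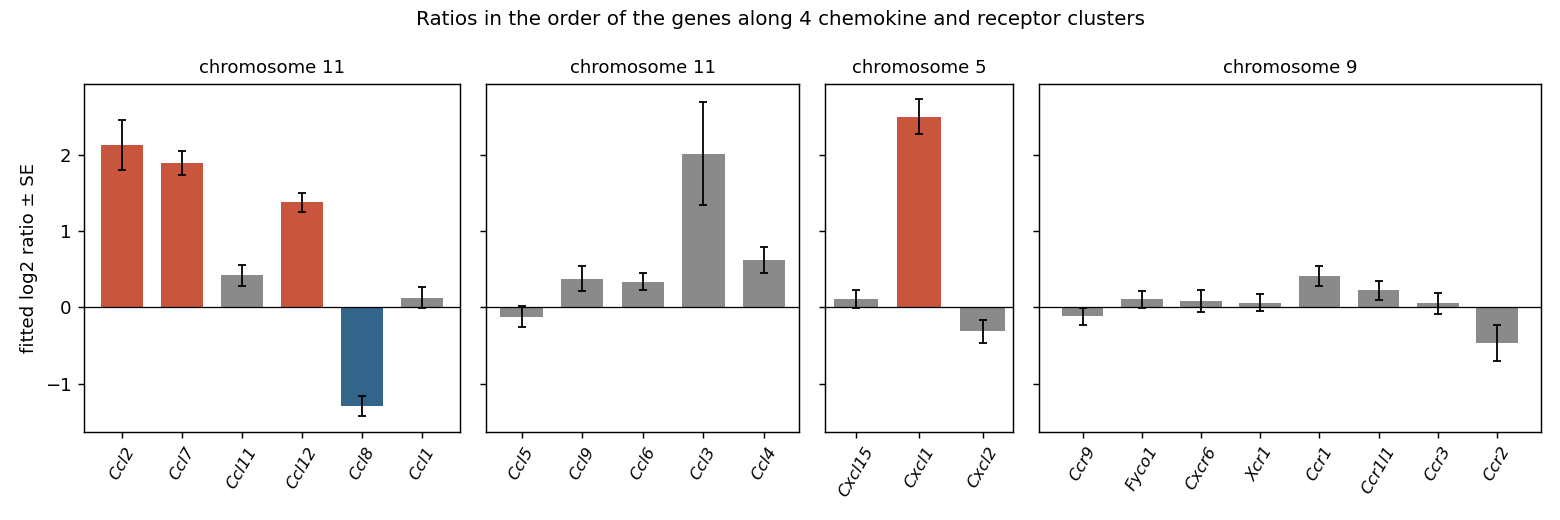
Fitted log2 ratio with its SE (y axis) of genes in their RefSeq order along 4 clusters (x axis, not to distance); red bars are called higher, blue called lower and grey not called. In the first cluster Ccl12 (1.37) and Ccl8 (-1.29) stand side by side with opposite signs, and the receptor cluster on chromosome 9 has no coloured bar.

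Dye orientation was tested as a term of the same fit, since a ratio that follows the channel is no stable difference between pools. It passed for 0 of the 48 genes, the lowest limma adjusted p being 0.378, and for 2 of all 13022 genes (0.0154%). With at most 3 arrays per orientation, a term that did not pass does not show that orientation has no part. Over the placed probes the mean Spearman rho was 0.28 between arrays of the same orientation. Between arrays of opposite orientation it was 0.11. The placement started from a higher assumed correlation within an orientation than between orientations. This contrast is therefore no independent evidence on orientation. For Cxcl1 the means were 2.45 over arrays 4, 5 and 6 and 2.55 over arrays 1, 2 and 3; for Ccl2 they were 2.13 and 2.12 and for Ccl8 -1.25 and -1.34, in the same order. Those of Cxcl13 were 0.77 and 0.20. With only the 3 arrays that hold the CL-316,243 pool in channel 2, 7 genes passed, 6 of them shared with the 7 above (208 of 13398 genes, 1.55%). With only those that hold it in channel 1, Cxcl1 and Ccl8 passed (74 of 12711 genes, 0.582%), and Ccl7 and Ccl12 were at 1.74 and 1.16 (limma adjusted p = 0.0513 and 0.0972).

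Outside the symbol rule, 13 relatives were tested and 2 passed: Ppbp was higher, and Cmtm6, a chemokine-like membrane protein, was lower (-0.52 ± 0.11, limma adjusted p = 0.0324). Cmklr1, the chemerin receptor, was at -0.53 ± 0.16 and did not pass. Of 31 genes of receptor signalling (G proteins, kinases, RGS proteins, arrestins and integrins), none passed, and the median was -0.06; the largest ratios were those of the G protein subunit Gng12 (0.46 ± 0.14), the receptor kinase Grk6 (-0.43 ± 0.15) and the G protein regulator Rgs19 (-0.39 ± 0.14). Marker lists of endothelial cells (9 tested, median -0.11), of fibroblasts and preadipocytes (8 tested, median -0.01) and of adipocytes (9 tested, median 0.34) held no call. In the adipocyte list Cidec, a lipid droplet protein, was at 1.17 ± 0.33 and Lpl, lipoprotein lipase, at 0.76 ± 0.22, both above 0 on every measured array and neither called; 6 of the 9 were positive and 3 negative, down to -0.47. On single arrays the macrophage median ran from -0.26 on array 4 to 0.12 on array 2 and that of inflammatory CC ligands from -0.82 on array 2, where few of them were measured, to 0.94 on array 5. The part of cell make-up in the ratios was not tested.

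Across 16 alternatives in placement, model and arrays, other than the rows as deposited, Cxcl1 stayed between 2.24 and 2.77 and Ccl8 between -1.39 and -1.22, and both passed in all 16. Ccl7 (1.65 to 2.13) and Ccl12 (1.16 to 1.59) passed in 14 of the 15 that tested them. Ccl2 (1.57 to 2.67) passed in 11 of 15, Cxcl13 (0.20 to 0.77) in 9 of 16 and Cxcr4 (-1.15 to -0.70) in 8 of 13. Some alternatives could not or did not move these ratios. Each gene has 1 probe, so taking the first probe kept every ratio. Ccl2, Ccl7, Ccl12 and Cxcr4 have no value on array 2, and Cxcr4 has none on array 4. Leaving out those arrays kept their ratios. Cxcr4 also kept its ratio at a posterior of 0.8, without the dye term and under robust regression. Ccl2, Ccl12, Cxcl13 and Ccl8 kept theirs at both other posteriors and in the placement without the 51 probes. Such passes are no separate checks of a ratio. When the 51 probes gave no evidence to the placement, 256 values were kept in both placements and all 256 were identical, 6 were kept only with that evidence and 4 only without it. The 6 include the array 2 values of Cxcl1 and Xcl1 and the array 4 values of Ccl17, Ackr3 and Cxcr3. They also include the array 3 value of Cxcr4, which was then not tested.

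**Figure D5:**
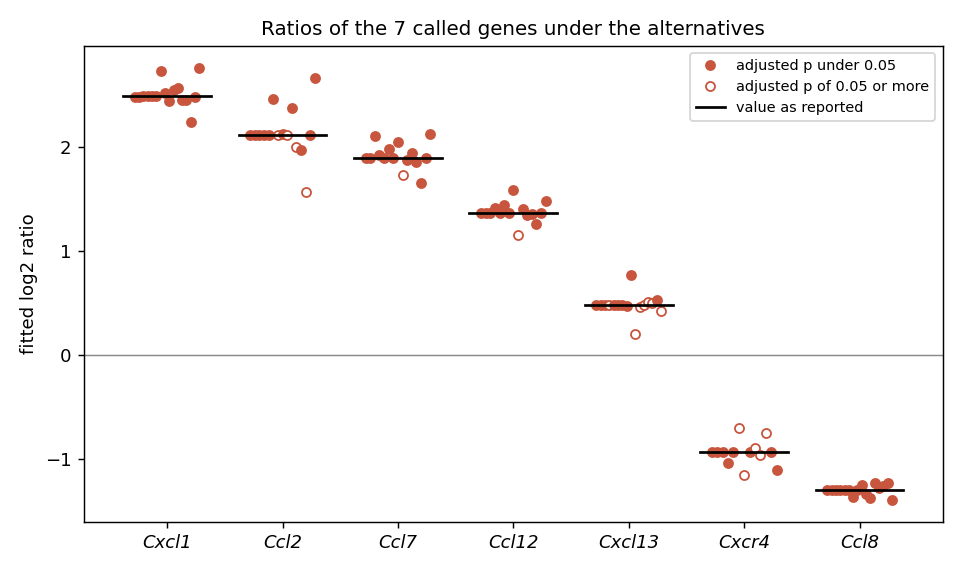
Fitted log2 ratio (y axis) of the 7 called genes (x axis) under each alternative that tested them, the rows as deposited left out; filled points have a limma adjusted p under 0.05, open points do not, and black lines are the values reported. Cxcl1 and Ccl8 have filled points only, while Ccl2, Cxcl13 and Cxcr4 have open points among theirs.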

How the data were processed

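The table holds log2 ratios made by the authors: per the labels, cDNA of pooled RNA carried fluorescein (Cy3) or biotin (Cy5), was detected by tyramide signal amplification, scanned (ScanArray 5000) and quantified with QuantArray 3.0, then scaled by a uniform factor and smoothed with LOWESS. The sources used here give neither log base, numerator nor the rule for dropped spots; the values centre on 0 and are taken as log2. No intensities were used, so signal over background is unknown, and the number of arrays limits the precision.

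Empty rows stood at the end of each column (169, 8 and 1 on arrays 4, 5 and 6, and 29, 724 and 38 on arrays 1, 2 and 3). A hidden Markov model, which allows lost spots but no added ones, placed each column on probe numbers: 3 columns jointly, then 3 rounds of single columns, on normal scores clipped at 3, with a lost spot followed by another at probability 0.5. Values with a posterior of at least 0.95 were kept. The starting correlations between arrays were set higher within an orientation than between orientations, then re-estimated from placed values. Agreement between arrays guides the placement and is raised by it. Its gain in log-likelihood fell on every array when the sign of 1 orientation was turned (to 2091, 3090 and 1622 from 2220, 3187 and 1768 on arrays 4, 5 and 6, and to 2104, 651 and 572 from 2277, 698 and 878 on arrays 1, 2 and 3). Probe names came from the platform annotation, with 14711 probes of 1 symbol, 6 of several and 4483 unnamed here, and 14416 matched by Entrez identifier. No named probe was used here for Ccl21a, Ccl21b, Ccl21c, Ccl26, Ccl27a, Ccl27b, Ccl28, Cxcl3, Cxcl17 or Cxcr1.

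Gene ratios (mean of a gene's probes) were fitted with limma 3.58.1 (R 4.3.3; lmFit, eBayes) against 0 with dye orientation coded plus and minus 1, for genes with values on at least 4 arrays, and p-values were adjusted by Benjamini-Hochberg over all of them. The fit and the placement were also run on simulated data. The simulated columns took their correlations and their possible lost spots from the placement itself. That run therefore cannot show whether the measured columns were placed rightly. Array values were printed for called genes and for the 10 others with the largest ratios. Genes and lists were chosen with earlier results of these data known. Alternatives were another posterior (0.99, 0.8), placement without the 51 probes, rows as deposited, no dye term, the first probe of a gene, values on all 6 arrays, array weights, robust regression, each orientation alone and each array left out.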

Additional observations from a re-analysis of the deposited data

Results flagged for a closer look

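On 2 of the 48 genes examined 1 array lay far from the others, where 2.4 would be expected at 1 in 20. Ccl3 was at 5.93 on array 5 with the next highest value at 0.80, and its fitted ratio was 2.01, or 0.73 without that array. Ccl17 was at 2.68 on array 4 with the next highest at 0.59, and its fitted ratio was 0.66, or 0.27 without that array.

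In 2 genes every array with the CL-316,243 pool in channel 2 lay on one side of 0 and every array with it in channel 1 on the other. The share of all genes that do so was not counted, so the number has nothing to be set against. The means of Cxcr2 were 0.24 in channel 2 and -0.61 in channel 1, a difference of 0.85 (limma adjusted p of the dye term 0.402). Those of Cxcl15 were 0.28 and -0.08 in the same order, a difference of 0.36 (limma adjusted p of the dye term 0.594). Neither dye term passed.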

How the results depend on the processing

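With the rows as deposited, 0 of 51 chemokine and receptor genes passed limma (1 at an unadjusted p under 0.05), and the signs of Cxcr4 (0.0429), Ccl8 (0.0331), Ccr2 (0.0594), Ccl11 (-0.16), Ccr1 (-0.10), Ccl9 (-0.0695) and Cxcl12 (-0.0087) turned. Of the 19 genes with values on all 6 arrays 3 passed (336 of 7853 genes, 4.28%), since Ccl2, Ccl7, Ccl12 and Cxcr4 lack array 2. The arrays with the CL-316,243 pool in channel 1 alone gave 2 calls and turned Ccl11 (-0.0497). Leaving out 1 array gave 4 to 7 calls (4 without array 1 or 5), and 0 to 1 calls by the dye term (Ccl3 without array 6, where array 5 stood alone for its orientation). Array weights gave 10 calls (929 genes, 7.13%) and robust regression 9 (1168 genes, 8.97%), against 392 genes as reported; the weights added Ccl3, Ccl4 and Ccl6, and robust regression added Ccl6, Ccl11 and Ccl24 and lost Ccl2 (adjusted p = 0.0886). Without a dye term Cxcl13 was lost. With the CL-316,243 pool in channel 1 alone Ccl4 was at 0.32 and Ackr3 at 0.21. Over all genes, 230, 131 and 158 passed without array 4, 5 or 1, 208 with the CL-316,243 pool in channel 2 alone and 74 with it in channel 1 alone. Placement without the 51 probes gave 7 calls (394 of 13050 genes, 3.02%), 6 of them shared (Cx3cl1 was added and Cxcr4 not tested). The causes of these differences were not tested, other than the fewer genes with values on all arrays. No paired analysis was possible because the 2 orientations share no replicate number. Depth is unknown, and the 2 pools give no measure of the spread between mice.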
